A study of Mus musculus with 6 samples.

Results

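The genes that encode the proteins of the cytosolic ribosome were described in mouse pancreatic islets. They were chosen by name alone, as the protein-coding genes whose symbols begin with Rpl, Rps or Rplp and a digit, leaving out the Rps6k kinases. This gave 93 of the 54532 genes in the deposited table. They comprised 30 genes of the small (40S) subunit, 43 of the large (60S) subunit, the 3 genes of the P stalk, 8 paralogs of such genes, 8 genes whose symbols carry a pseudogene suffix and 1 gene, Rps19bp1, that encodes no ribosomal protein. Rpsa, Fau and Rack1 also encode ribosomal proteins but have other symbols, and were read separately.

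Islets of mice aged 7 weeks gave 2 groups of 3 poly-A RNA libraries, each made from islets combined from 3 mice, and the labels call these independent biological replicates. The control mice were Wtap flox/flox, with recombination sites in an otherwise intact Wtap gene. The other group bore the label Wtap-βKO, for loss of Wtap in β cells. Its Cre driver and the exons deleted were not stated in the labels. WTAP belongs to the nuclear machinery that places N6-methyladenosine on RNA. Wtap itself stood at 10.5, 11.4 and 11.6 FPKM in controls 1 to 3 and at 11.2, 11.9 and 12.3 FPKM in the libraries labelled Wtap-βKO, so its whole-gene level did not separate the labels, and the second group is called knockout-labelled throughout. FPKM counts fragments per kilobase of a gene, relative to a size set for the library. Every islet marker looked for was above 0 in at least 1 library, and the insulin genes Ins1 and Ins2 together held 31.2% ± 2.02 of all FPKM in controls and 19.0% ± 0.183 in knockout-labelled libraries (SD, n = 3). Recovered reads came to between 16353297 and 18682745 per library. The library size that the FPKM imply was 0.988, 0.966 and 0.952 times these reads in controls 1 to 3. It was 1.07, 1.04 and 1.04 times them in knockout-labelled replicates 1 to 3, so this scaling differed between the groups. In bulk islets, fewer cells of a type and less RNA per cell cannot be told apart.

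The cytosolic ribosome translates nuclear-encoded messenger RNA. Its 40S subunit decodes the message, its 60S subunit forms peptide bonds, and the P stalk of the 60S subunit recruits elongation factors. The messenger RNAs of most ribosomal proteins are known to begin with a 5′ terminal oligopyrimidine (TOP) tract, an unbroken stretch of C and T (U in RNA) starting with C, through which the kinase complex mTORC1 and the binding protein LARP1 control their translation. In islets the β cell spends much of its translation on proinsulin.

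The starts of some members are printed to show this tract, because it is the sequence feature that the family is best known for. RefSeq promoters on GRCm38.p6 were matched by symbol for 65 of the 93 members. A tract was counted where a run of at least 8 bases, made of C and T only, beginning with C and read on the gene's own strand, overlapped the stretch from 5 bases before to 5 bases after the annotated start. Where a gene had several starts, the start with the longest run was used. Each line gives 10 bases before the start and 20 bases from it, with the longest run in capitals.
Rpl27a, chr7:109519185-109519214, plus strand: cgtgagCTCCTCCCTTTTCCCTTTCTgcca
Rpl15, chr14:18270967-18270996, minus strand: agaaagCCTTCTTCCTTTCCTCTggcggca
Rpl35a, chr16:33056472-33056501, plus strand: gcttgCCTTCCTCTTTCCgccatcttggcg
Rps6, chr4:86857348-86857377, minus strand: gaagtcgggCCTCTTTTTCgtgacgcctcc
Rps15a, chr7:118116128-118116157, minus strand: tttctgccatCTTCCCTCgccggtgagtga
Rps25, chr9:44407704-44407733, plus strand: ccgacatCTTagcgaggctgctgtggtcta
Rps7, chr12:28635934-28635963, minus strand: cggtttccaCCCacctacttccgctgtccc
The run was 20 bases in Rpl27a, 17 in Rpl15, 13 in Rpl35a, 10 in Rps6 and 8 in Rps15a. In Rps25 and Rps7 no run at the annotated start was longer than 3 bases. Of the genes of the 2 subunits and the stalk, 22 of the 56 with a matched start held a tract (39.3%), against 1509 of 16497 protein-coding genes in the table of starts (9.1%). The list of other TOP messenger RNAs, mostly translation factors, held a tract at 4 of 18 matched starts. A match describes these letters at this annotated start and no more. A missing match likewise does not show that a messenger RNA lacks the tract.

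A second sequence is printed because reads on it were divided between a pair of members. Rps27 and Rps27rt, a retrotransposed copy, had identical coding sequences of 255 bases on GRCm38, with 0 differing bases. In Rps27 the exons joined lie on chromosome 3 between 90212725 and 90213615, minus strand. In Rps27rt the sequence is unbroken on chromosome 9 from 114982453 to 114982707, minus strand. It is given once for both, with the start and stop codons in capitals.
Rps27 and Rps27rt: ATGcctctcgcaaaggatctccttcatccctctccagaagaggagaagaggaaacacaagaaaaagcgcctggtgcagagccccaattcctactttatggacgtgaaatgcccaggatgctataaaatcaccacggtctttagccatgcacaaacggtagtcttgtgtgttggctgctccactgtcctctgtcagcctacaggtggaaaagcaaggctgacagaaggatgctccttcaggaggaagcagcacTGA

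All 76 genes of the 2 subunits and the stalk were expressed above the filter used for testing, a mean of 0.5 FPKM over the 6 libraries. In all 87 members passed it and 6 did not. Rpl3l, a striated-muscle paralog, was at 0.0695, 0.308 and 0.137 FPKM in controls and at 0.129, 0.102 and 0.247 FPKM in knockout-labelled libraries. Rpl39l, known from testis, had 2 reads in all 6 libraries. Rpl10l, also known from testis, had no reads in any library, nor had Rpl9-ps1, Rpl36-ps4 and Rpl13a-ps1. A count of 0 reads allows up to 3 reads, which for Rpl10l was 0.156 to 0.186 FPKM depending on the library, for counting error only.

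Levels differed widely among genes whose proteins are mostly present in equal numbers in the ribosome. Of the 76 genes, 28 had a mean of at least 100 FPKM and 4 were under 10 FPKM. The 5 members with the highest means were Rplp1 at 625 FPKM, Rps3a1 at 419, Rplp0 at 355, Rpl41 at 329 and Rpl8 at 314 FPKM. Rplp0, Rplp1 and Rplp2 together make the stalk, yet Rplp2 had a mean of 68.2 FPKM. FPKM divides by the deposited gene length, which was 499 bases for Rplp1 and 2072 bases for Rplp2. In control 1 their reads numbered 4765 and 2140, a smaller gap than in FPKM. Levels of different members thus depend also on the lengths used. Among tested members the lowest means were those of Rpl36a-ps1 at 0.656 FPKM, Rpl24 at 1.25, Rpl10-ps3 at 1.50, Rps10 at 1.54 and Rpl27-ps3 at 1.62 FPKM. When the tested members were ordered by mean, 59 of the 86 neighbouring pairs had control values that overlapped or stood in the other order, so the order of most neighbours did not exceed the replicate spread. The mean number of reads behind a tested member ran from 5.17 in Rpl36a-ps1 to 11233 in Rpl10, with a median of 2442.

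Some of the low levels came with reads on processed pseudogene rows of the same name. In Rps10, which encodes a 40S protein near the messenger RNA entry channel, 94.7% of the reads of the gene and its 4 pseudogene rows lay on the latter, mostly on Rps10-ps2. That row was at 113, 113 and 113 FPKM in controls and at 120, 156 and 126 FPKM in knockout-labelled libraries. Its sequence matched the 510-base coding sequence of Rps10 over 456 aligned bases at 99.1% identity. Rpl17 and Rpl21 had 75.0% and 65.7% of such reads on pseudogene rows, mostly on Rpl17-ps10 and Rpl21-ps15, whose identities to the parent gene were 99.3% and 99.4%. Of 76 families, 58 had at least 1 pseudogene row, and in 14 these rows held over 10% of the reads. Only rows named after the parent gene with a pseudogene suffix were counted. Copies under other symbols are left out, so these shares may be incomplete. No source used here says how the authors' counting assigned reads among near-identical copies, so the split within such families is uncertain.

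The members as a whole were higher in the knockout-labelled libraries by a small amount that differed from library to library. Their summed FPKM was 8017, 7979 and 8444 in controls and 8559, 11263 and 9499 in knockout-labelled libraries. Every knockout-labelled sum exceeded every control sum, and replicate 1 exceeded the highest control by the smallest margin. The means were 8146 ± 258 and 9774 ± 1373 FPKM (SD, n = 3), a ratio of 1.20. With scaling to total recovered reads the ratio was 1.30. As a share of reads, members held 1.26%, 1.25% and 1.29% in controls and 1.44%, 1.85% and 1.55% in knockout-labelled libraries. Shares depend on what else is in the library, and the insulin share given above was lower in the same libraries.

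Limma was run on log2(FPKM + 1) over 15927 genes, with p-values adjusted by Benjamini-Hochberg over all of them. By this test 6 of the 87 members were called higher in the knockout-labelled libraries at an adjusted p under 0.05, and 0 were called lower. The background was 8.77% of all genes called higher and 11.3% called lower. The members' 6.90% called higher is close to that background, so the count of calls is not a result about the members. At an unadjusted p under 0.05, 28 members were higher and 0 lower, against 16.3% and 18.6% of all genes tested. Groups did not overlap for 30 members higher (34.5%, background 19.1%) and 0 members lower (background 22.1%). Limma voom on recovered reads called 58 members higher against a background of 19.0% and 0 lower, and voom with the library sizes implied by the deposited FPKM called 24 against 11.6%. Scaling to total recovered reads called 32 members (background 14.6%), and scaling without the 50 highest genes called 20 (background 10.5%).

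The direction was more uniform than the calls. The median log2 fold change of the 87 tested members was 0.24, a 1.18-fold ratio, with the middle 50% between 0.14 and 0.31. The median over all genes tested was -0.01. Fold changes were positive for 78 members (89.7%), against 49.1% of all genes. Among non-members with a mean of at least 20 FPKM the median was -0.09. The plot of fold changes by subunit shows the small and large subunits side by side.

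**Figure D1:**
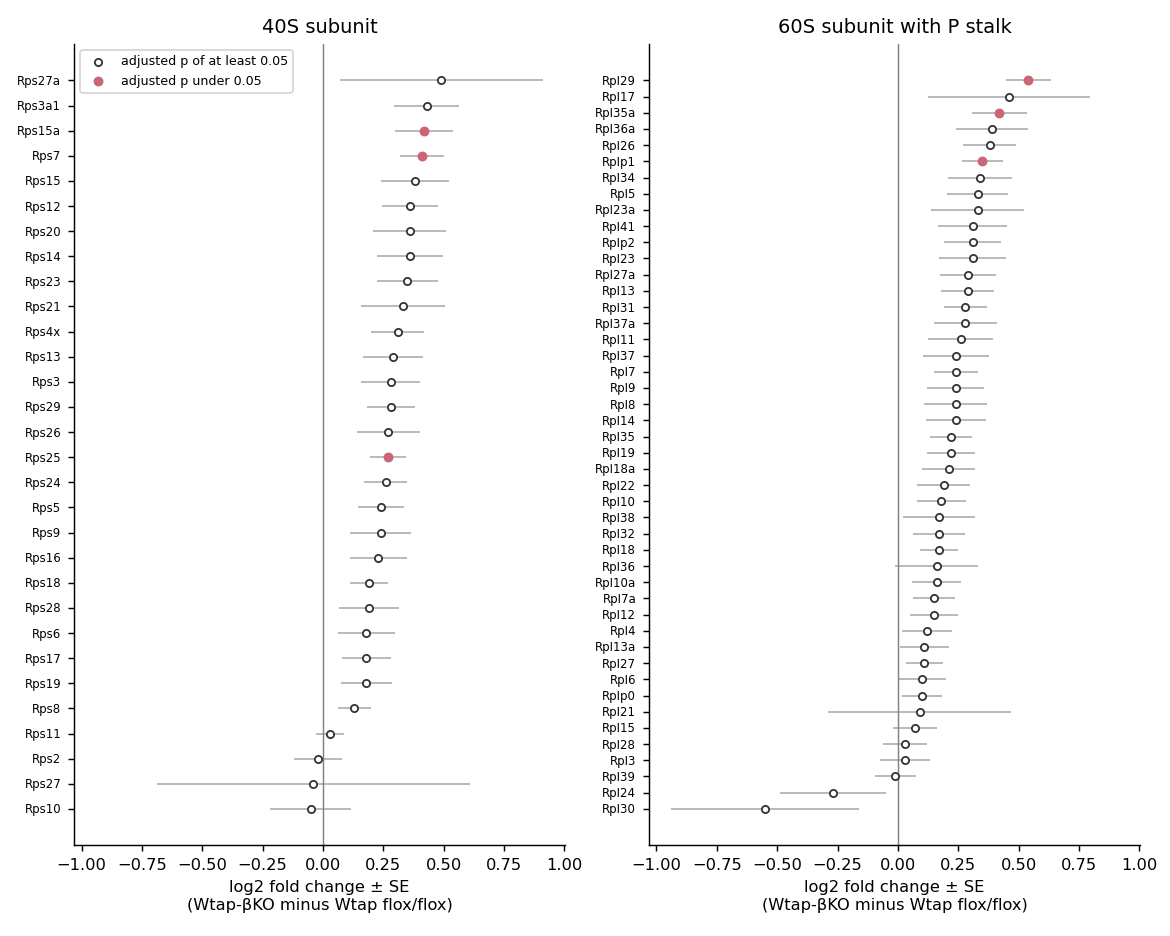
Log2 fold change (knockout-labelled minus control, horizontal axis) with its standard error from limma for the 30 genes of the 40S subunit and the 46 of the 60S subunit with the P stalk. Filled points have an adjusted p under 0.05, and 27 of 30 and 43 of 46 points lie above 0.

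In the 40S subunit 27 of 30 genes had a positive fold change, with a median of 0.27, and 3 were called higher and 0 lower. In the 60S subunit without the stalk 40 of 43 were positive, with a median of 0.22, and 2 were called higher and 0 lower. The 3 stalk genes were all positive, with 1 called higher. The 5 tested paralogs had a median of 0.02 and none was called, with 0 at an unadjusted p under 0.05 in limma and 1 higher in voom on recovered reads.

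**Figure D2:**
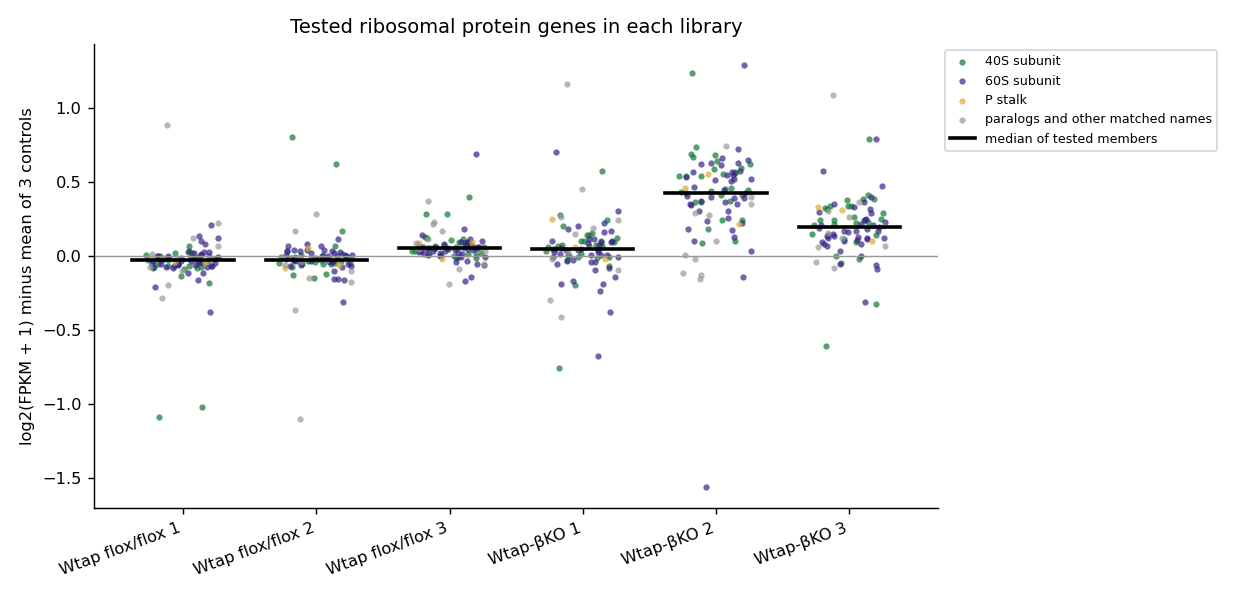
Each point is 1 of the 87 tested members, placed by its log2(FPKM + 1) minus the mean of the 3 controls (vertical axis) in each of the 6 libraries, and the black lines are medians. The medians of the knockout-labelled libraries are 0.05, 0.42 and 0.19 for replicates 1 to 3.

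Knockout-labelled replicate 2 had the highest levels for most members. The median member stood at -0.03, -0.03 and 0.05 above the control mean on the log2 scale in controls 1 to 3, and at 0.05, 0.42 and 0.19 in knockout-labelled replicates 1 to 3. Replicate 1 was thus at the level of control 3. Replicate 2 was the highest of the 6 libraries for 75 of the 87 members (86.2%), against 21.7% of all genes tested. The levels ran from replicate 1 through 3 to 2 in 68 members (78.2%), against 21.2% of all genes. Replicate 1 exceeded all 3 controls for 36 members (41.4%), replicate 2 for 77 (88.5%) and replicate 3 for 67 (77.0%). Over all genes tested these shares were 33.4%, 36.1% and 34.0%, so that of replicate 1 is near the background. Without replicate 2 the median log2 fold change fell to 0.12, with 71 of 87 members positive, and 5 members were called higher (background 8.66%). Without replicate 1 the median was 0.34 and 22 members were called higher (background 6.09%). Without control 1, 2 or 3, or knockout-labelled replicate 3, 1 member was called in each case, against backgrounds of 5.04%, 4.92%, 5.43% and 5.23%.

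Other values also set replicate 2 apart. The summed FPKM of the 4 δ and PP cell markers (Sst, Hhex, Ppy and Rbp4) was 12552, 12978 and 14079 in controls. In knockout-labelled libraries it was 15032, 27860 and 15480, and replicate 2 stood apart mainly through Ppy. In knockout-labelled replicates 1 to 3 Ppy was at 9428, 19590 and 8761 FPKM and Sst at 5422, 8071 and 6519 FPKM. Rbp4 (173, 187 and 188 FPKM) and Hhex (9.07, 12.4 and 11.7 FPKM) differed little between replicates 2 and 3. Counts in replicate 2 differed from those in replicates 1 and 3 by a chi-square per degree of freedom of 16.4 and 15.6, whereas replicates 1 and 3 differed from each other by 5.06. Between the groups, the 9 β cell markers summed to 134464 to 154675 FPKM in controls and to 81579 to 92204 FPKM in knockout-labelled libraries. Most of that sum was Ins1, Ins2 and Iapp. Limma called 7 of the 9 lower (11.3% of all genes), but not Ins2 (adjusted p = 0.190) or Iapp (adjusted p = 0.935). The 15 acinar markers summed to 148, 140 and 246 FPKM in controls and to 348, 318 and 244 FPKM in knockout-labelled libraries, so the groups overlapped. Limma called 3 of the 14 tested higher (8.77% of all genes). The 6 α cell markers summed to 21220 to 25431 FPKM in controls and 33763 to 44610 FPKM in knockout-labelled libraries. Most of that sum was Gcg, which limma did not call (adjusted p = 0.0890), while 4 of the 6 were called higher (8.77% of all genes). The 9 B and plasma cell markers summed to 15.9 to 18.6 FPKM in controls and 74.1 to 82.0 FPKM in knockout-labelled libraries. Most of the last sum was Igkc, with means of 4.18 and 45.9 FPKM, and Igha, with 0.472 and 17.2 FPKM, while the B cell marker Cd79a fell from 8.06 to 2.49 FPKM (adjusted p = 0.00428). No listed marker was at 0 in every library. The part of these cell types in the members' levels was not tested.

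**Figure D3:**
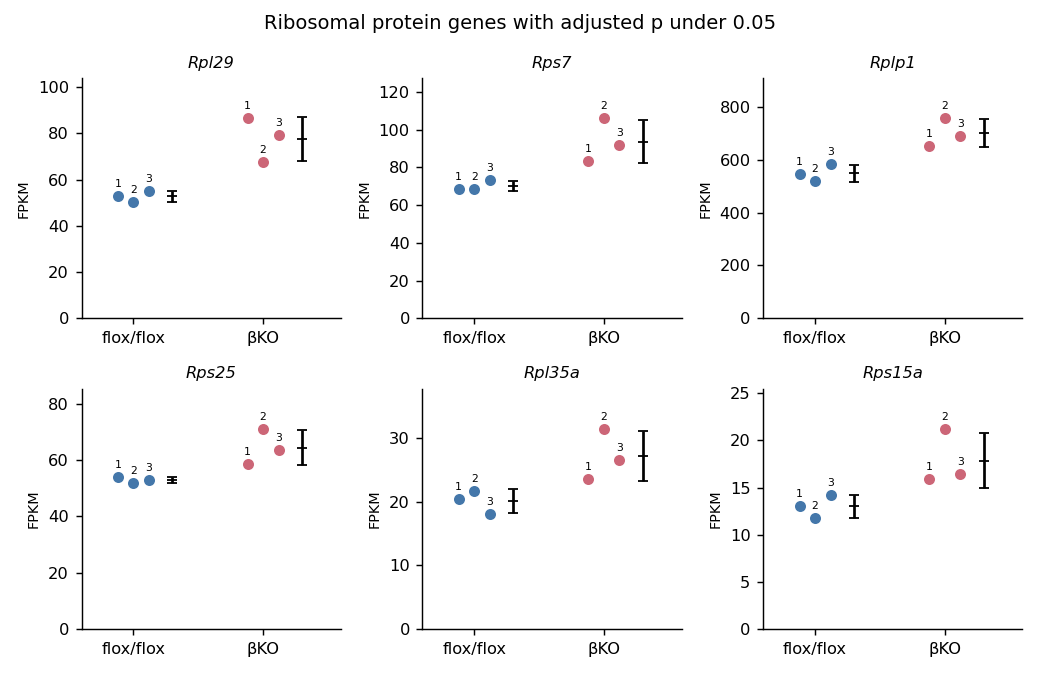
FPKM (vertical axes, from 0) of the 6 members called higher, with each library as a numbered point and the mean ± SD (n = 3) beside each group. In all 6 panels the groups do not overlap, and replicate 1 is the highest point in Rpl29 alone.

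Rpl29 had the smallest adjusted p of all members. It encodes a small 60S protein also known for binding heparan sulfate at the cell surface, and lies on chromosome 9 from 106429454 to 106431568, plus strand (GRCm38). Its level was 52.8, 50.4 and 55.2 FPKM in controls and 86.5, 67.6 and 79.2 FPKM in knockout-labelled libraries. All 3 knockout-labelled values were above all controls, and replicate 1, not replicate 2, was the highest. The mean rose 1.47-fold, and its log2 fold change was 0.54 (SE 0.0942, adjusted p = 0.00963). It was called higher in all 21 alternatives tried, with adjusted p between 0.000288 and 0.0415.

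Rpl35a, a 60S gene known to be mutated in some people with Diamond-Blackfan anemia, lies on chromosome 16 from 33056453 to 33060189, plus strand. It was at 20.4, 21.7 and 18.0 FPKM in controls and at 23.5, 31.4 and 26.6 FPKM in knockout-labelled libraries. The groups did not overlap, with replicate 2 highest. The mean rose 1.36-fold (log2 fold change 0.42, SE 0.115, adjusted p = 0.0442), and the call held in 14 of 21 alternatives.

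The stalk genes differed in the size of their change. Rplp1, an acidic stalk protein, was at 545, 520 and 584 FPKM in controls and at 653, 757 and 691 FPKM in knockout-labelled libraries, with no overlap. The mean rose 1.27-fold (log2 fold change 0.35, SE 0.0851, adjusted p = 0.0306), the call held in 14 of 21 alternatives, and quantile normalization turned the fold change to -0.07. Rplp2, its acidic partner, was at 58.9, 62.9 and 59.8 FPKM and at 63.3, 89.2 and 75.3 FPKM, with a log2 fold change of 0.31 and an adjusted p of 0.113. Rplp0, the protein that anchors the stalk to the subunit, was at 333, 329 and 366 FPKM and at 337, 398 and 368 FPKM, where the groups overlapped (log2 fold change 0.10, adjusted p = 0.448). The difference between the stalk genes was not tested.

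Among 40S genes Rps7 had the smallest adjusted p. It encodes a 40S protein known to bind the p53 regulator MDM2, and lies on chromosome 12 from 28630854 to 28635953, minus strand. Its level was 68.5, 68.4 and 73.1 FPKM in controls and 83.2, 106 and 91.7 FPKM in knockout-labelled libraries, with no overlap. The mean rose 1.34-fold (log2 fold change 0.41, SE 0.0919, adjusted p = 0.0231), and the call held in 16 of 21 alternatives.

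Rps15a, a 40S gene, lies on chromosome 7 from 118104372 to 118116188, minus strand. It was at 13.0, 11.8 and 14.2 FPKM in controls and at 15.9, 21.2 and 16.4 FPKM in knockout-labelled libraries. The groups did not overlap, and the mean rose 1.37-fold (adjusted p = 0.0494). Rps25, which some viral messages need for internal initiation, lies on chromosome 9 from 44407139 to 44410427, plus strand, and overlaps Trappc4 and Ccdc84, with which reads could be shared. It was at 54.0, 52.0 and 52.9 FPKM in controls and at 58.5, 71.0 and 63.7 FPKM in knockout-labelled libraries, a 1.22-fold rise (adjusted p = 0.0467). Both calls held in 12 of 21 alternatives. Without knockout-labelled replicate 2, Rps15a, Rps25 and Rpl35a were no longer called, with log2 fold changes of 0.30, 0.20 and 0.31 (adjusted p = 0.0565, 0.0518 and 0.0693). Rps3a1 and Rpl26 were then called higher, each with a log2 fold change of 0.27 (adjusted p = 0.0377 and 0.0460). Without any single control, or without replicate 3, Rpl29 was the only member called.

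Rps3a1, the second most abundant member, was at 350, 347 and 368 FPKM in controls and at 408, 593 and 450 FPKM in knockout-labelled libraries. Its groups did not overlap, yet its log2 fold change of 0.43 had an adjusted p of 0.0677. Rpl8 was at 279, 287 and 292 FPKM in controls and at 285, 415 and 327 FPKM in knockout-labelled libraries, and Rpl41, the smallest ribosomal protein, at 297, 291 and 283 FPKM and at 314, 461 and 327 FPKM. In both the highest library was replicate 2, and the adjusted p values were 0.240 for Rpl8 and 0.172 for Rpl41.

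The most negative fold changes were those of Rpl30, Rpl24, Rpl22l1, Rpl36al and Rps10, and none passed the test. Rpl30, a 60S protein also known for binding selenoprotein messages, was at 21.8, 24.5 and 23.2 FPKM in controls and at 22.7, 7.19 and 22.3 FPKM in knockout-labelled libraries. Only replicate 2 was low, and the log2 fold change of -0.55 had an SE of 0.389. Its pseudogene row Rpl30-ps10, 99.1% identical over 347 aligned bases, was lowest in the same library, at 15.5, 21.7 and 27.4 FPKM in controls and at 21.7, 7.73 and 22.7 FPKM. Rpl30 with its named pseudogene rows came to 72.1, 82.9 and 80.7 RPM in controls (recovered reads scaled to the library size that the FPKM imply). In knockout-labelled libraries this sum was 78.5, 25.1 and 76.7 RPM, again lowest in replicate 2. Copies under other symbols were not counted, and the cause of the low value was not tested.

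Rpl24, a 60S protein that bridges to the 40S subunit, was at 1.66, 1.48 and 1.15 FPKM in controls and at 0.515, 1.74 and 0.957 FPKM in knockout-labelled libraries, with a log2 fold change of -0.27 and an adjusted p of 0.431. Rps10 was at 1.26, 1.89 and 1.58 FPKM and at 1.45, 2.03 and 1.05 FPKM, with a log2 fold change of -0.05. Counted with its pseudogene rows, which hold most of its reads, Rps10 was at 61.9, 62.7 and 61.6 RPM in controls and at 66.7, 84.5 and 68.5 RPM in knockout-labelled libraries. This turned the direction, to a log2 fold change of 0.23 with no overlap between the groups. Among paralogs, Rpl22l1 was between 20.5 and 23.1 FPKM in controls and between 17.5 and 21.1 FPKM in knockout-labelled libraries (log2 fold change -0.15, adjusted p = 0.248). Rpl36al was between 3.29 and 4.78 FPKM in controls, and its lowest knockout-labelled value was 3.51 FPKM. Rps27l, known as a p53 target, was at 46.4, 42.3 and 53.0 FPKM and at 52.3, 57.2 and 51.2 FPKM. Rpl7l1, a nucleolar relative of Rpl7, was at 16.3, 15.4 and 16.7 FPKM and at 15.9, 16.2 and 16.9 FPKM. The groups overlapped in all 4 of these paralogs.

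Some members varied within a group by more than most genes do. With a highest over lowest library of more than 2 inside a group, at a mean of at least 5 FPKM, there were 6 of 81 members (7.41%), against 2.25% of all genes at that level. They were Rps27, Rps27rt, Rps27a, Rpl17, Rpl21 and Rpl30, and this property was chosen after their values were seen.

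**Figure D4:**
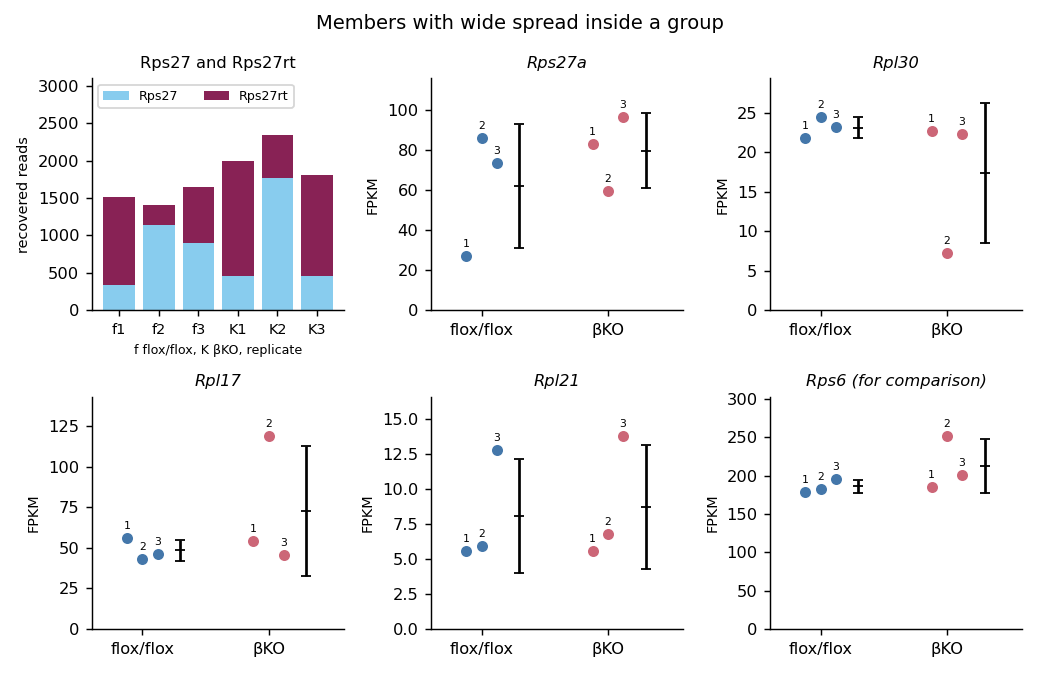
Recovered reads of Rps27 and Rps27rt stacked for each library (first panel), and FPKM by library with mean ± SD (n = 3) for Rps27a, Rpl30, Rpl17 and Rpl21, with Rps6 as a member of small spread. The stacked height changes less between libraries than its division between the 2 genes, in which Rps27rt takes 18.8% to 78.1%.

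Rps27 encodes a zinc-finger protein of the 40S subunit. Its reads numbered 331, 1145 and 895 in controls 1 to 3 and 452, 1763 and 460 in knockout-labelled replicates 1 to 3, while those of Rps27rt numbered 1177, 265 and 752, and 1542, 585 and 1344. Where 1 was high the other was low, in both groups. Rps27rt held 78.1%, 18.8% and 45.7% of the reads of the pair in controls and 77.3%, 24.9% and 74.5% in knockout-labelled libraries. Summed over the pair, the level was 86.1, 89.3 and 92.6 RPM in controls and 106, 131 and 105 in knockout-labelled libraries, with no overlap. The log2 fold changes of the separate genes were -0.04 (SE 0.648) for Rps27 and 0.70 (SE 0.549) for Rps27rt, and neither was called. As printed above, the coding sequences are identical, and the longest matching stretch of their annotated transcripts had 341 of 341 aligned bases identical. The reference copies therefore give no differing base there by which a read could be assigned, and which gene each sample expressed cannot be told from these counts.

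Rps27a makes a fusion of ubiquitin with a 40S protein. It was at 26.9, 86.0 and 73.4 FPKM in controls and at 83.0, 59.6 and 96.6 FPKM in knockout-labelled libraries, where control 1 was lowest. Its log2 fold change of 0.49 (SE 0.421) had an adjusted p of 0.457. Rpl17, a 60S protein at the exit of the nascent peptide tunnel, was at 55.8, 42.9 and 46.4 FPKM in controls and at 54.1, 119 and 45.3 FPKM in knockout-labelled libraries. Its row Rpl17-ps10 was at 138, 150 and 176 FPKM and at 142, 129 and 169 FPKM, lowest where Rpl17 was highest. The row Rpl17-ps3, 99.6% identical to Rpl17, was instead highest in that library, at 119 FPKM, and was at 96.4 and 97.1 FPKM in knockout-labelled replicates 1 and 3. Rpl17 with its pseudogene rows was at 172, 164 and 193 RPM in controls and at 179, 235 and 188 RPM in knockout-labelled libraries. Rpl21 was at 5.59, 5.92 and 12.8 FPKM in controls and at 5.60, 6.78 and 13.8 FPKM in knockout-labelled libraries, with replicate 3 the highest in each group.

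Counting the pseudogene rows with their parent genes left the direction as it was. The 76 families had a median log2 fold change of 0.24 in depth-scaled reads, and 71 of 76 were positive. The pseudogene rows alone, 288 in number with 75 tested, summed to 1132 ± 46.7 FPKM in controls and 1325 ± 125 FPKM in knockout-labelled libraries (SD, n = 3), a ratio of 1.17. Of the other members with a pseudogene suffix, Rps12-ps3, whose sequence matches Rps12 over 387 aligned bases without a mismatch, was at 82.4, 73.8 and 71.0 FPKM in controls and at 86.4, 127 and 97.8 FPKM in knockout-labelled libraries (log2 fold change 0.43, adjusted p = 0.0703). Of all members, 29 overlapped another gene with a mean of at least 0.5 FPKM, among them small nucleolar RNA genes, and their values may include reads of that gene.

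Fold changes were also read by the tract at the start. Members of the 2 subunits and the stalk with a tract at the annotated start had a median log2 fold change of 0.21 (22 genes). Those without such a match had 0.27 (34 genes), and they cannot be taken as lacking the tract. Other protein-coding genes had medians of 0.00 with a tract and 0.00 without. These are descriptions with no test.

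**Figure D5:**
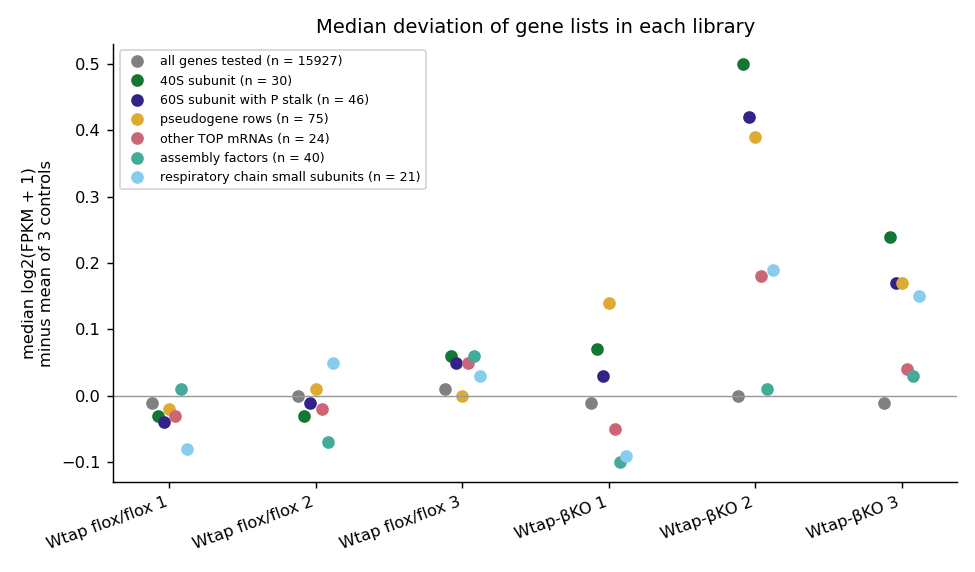
Median over each list of log2(FPKM + 1) minus the mean of the 3 controls (vertical axis) in each of the 6 libraries. In knockout-labelled replicate 2 the 40S and 60S lists stand at 0.50 and 0.42, the other TOP messenger RNAs at 0.18 and the assembly factors at 0.01.

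The plot of medians by library sets the members beside lists of genes that work with the ribosome, and differences between lists were not tested. The background for the counts of each list is again 8.77% of all genes called higher and 11.3% lower. Of the ribosomal protein genes outside the name rule, Rpsa, a 40S protein, was at 134, 135 and 144 FPKM in controls and at 143, 189 and 161 FPKM in knockout-labelled libraries (log2 fold change 0.25, adjusted p = 0.142). Fau, whose product is a 40S protein fused to a ubiquitin-like one, was at 176, 167 and 177 FPKM and at 167, 236 and 193 FPKM (log2 fold change 0.18, adjusted p = 0.334). Rack1, a 40S scaffold protein, was at 57.0, 55.7 and 62.2 FPKM and at 51.7, 69.3 and 56.6 FPKM (log2 fold change 0.01, adjusted p = 0.946). In these genes too replicate 2 was the highest library.

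Of the 24 other TOP messenger RNAs, 2 were called higher and 4 lower, with a median of 0.06. Their summed FPKM was 2413, 2456 and 2598 in controls and 2638, 3258 and 2845 in knockout-labelled libraries. Every knockout-labelled sum was above every control sum, with replicate 2 highest, though such a sum is weighted to the most abundant genes. Voom on recovered reads called 9 of the list higher and 1 lower, against 19.0% and 8.27% of all genes. Vim, the intermediate filament protein of mesenchymal cells, was higher at 5.37, 4.42 and 5.94 FPKM in controls and 7.84, 7.15 and 9.79 FPKM in knockout-labelled libraries (adjusted p = 0.0265). Of the 9 mesenchymal markers tested 6 were called higher too, and their part in the rise of Vim was not tested. The poly(A) binding proteins Pabpc4 and Pabpc1 fell by 0.38 and 0.27 on the log2 scale (adjusted p = 0.00981 and 0.0382), and the nucleosome assembly protein Nap1l1 fell by 0.25 (adjusted p = 0.0210).

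Of 40 ribosome assembly factors, 3 were called higher and 1 lower, with a median of -0.03. Rrs1 and Nop2, nucleolar factors of the 60S subunit, rose 1.29-fold and 1.32-fold (adjusted p = 0.0121 and 0.0163), and Nip7, another 60S factor, rose 1.30-fold (adjusted p = 0.0270). Gnl2, a nucleolar GTPase of 60S assembly, fell by 0.35 on the log2 scale (adjusted p = 0.0171). Of the 15 genes of the RNA polymerase I machinery, which transcribes ribosomal RNA, none was called by limma, with 0 at an unadjusted p under 0.05. Voom on recovered reads called 4 higher (background 19.0%), and voom with implied library sizes called 0 (background 11.6%).

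The list for control of TOP translation by mTORC1 had 1 gene called higher and 4 lower of 22, with a median of -0.15, where the background shares are 8.77% higher and 11.3% lower. Ddit4, a stress-induced inhibitor of mTORC1, was at 95.9, 103 and 95.3 FPKM in controls and at 142, 169 and 122 FPKM in knockout-labelled libraries, a 1.47-fold rise (adjusted p = 0.0196). Deptor, which binds and inhibits mTOR, was at 15.8, 17.7 and 17.2 FPKM and at 13.6, 11.1 and 11.9 FPKM (adjusted p = 0.0129). Larp4 and Larp4b, RNA-binding proteins related to LARP1, fell by 0.39 and 0.26 on the log2 scale (adjusted p = 0.0146 and 0.0468).

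In the MYC family 2 of 9 genes were called lower (background 11.3%) and 0 higher (background 8.77%). An unadjusted p under 0.05 in limma gave 3 lower and 0 higher, against 18.6% and 16.3% of all genes. Voom on recovered reads called 2 lower and 0 higher, against 8.27% and 19.0%. The list is short, and its counts were not tested against these backgrounds. Myc, a transcription factor known for driving ribosome genes, was at 5.36, 4.01 and 5.30 FPKM in controls and at 3.22, 2.71 and 3.44 FPKM in knockout-labelled libraries, 1.56-fold lower (adjusted p = 0.0273). Mnt, which opposes MYC at shared sites, was 1.36-fold lower (adjusted p = 0.0128). Of 13 genes of ribosome rescue and stress, 1 was called higher and 3 lower. Pelo, which splits stalled ribosomes, rose 1.56-fold (adjusted p = 0.0174), and Gtpbp1, Rnf10 and Ascc3 fell by 0.49, 0.27 and 0.40 on the log2 scale (adjusted p = 0.00144, 0.0126 and 0.0347).

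The 21 small subunits of the respiratory chain, also short and abundant messages, had a median of 0.10. Limma called 1 higher, Uqcr10 (1.16-fold, adjusted p = 0.0327), and 0 lower. Fold changes were positive for 16 of these 21 genes (76.2%), against 49.1% of all genes. An unadjusted p under 0.05 in limma gave 2 higher and 1 lower, against 16.3% and 18.6% of all genes. Voom on recovered reads called 6 of the 21 subunit genes higher (background 19.0%) and 0 lower. Their medians in knockout-labelled replicates 1 to 3 were -0.09, 0.19 and 0.15.

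Members moved together over the 6 libraries. Of the 87, 61 had a Pearson correlation of at least 0.8 with the members' mean log2 level, and 5 were under 0, with Rpl30 at -0.86. Of the 1948 other protein-coding genes with a mean of at least 20 FPKM, 254 reached 0.8. These are descriptions over 6 libraries that share depth and composition, and each member is part of the mean. Among those other genes the closest to the members' mean were Rpsa at 0.999, Ddx42 at 0.995, Eif3h at 0.993, Eef2 at 0.992, Tpt1 at 0.991, Calm3 at 0.991, Eef1g at 0.987, Bcap31 at 0.978, and Cox6a1 and Mapkapk2 at 0.975. Eif3h, an initiation factor subunit, was at 51.9, 53.0 and 55.8 FPKM in controls and at 55.2, 69.1 and 59.0 FPKM in knockout-labelled libraries. Tpt1, the abundant translationally controlled tumor protein, was at 242, 241 and 254 FPKM and at 258, 334 and 295 FPKM. Eef2, the translocation factor, was at 464, 472 and 496 FPKM and at 486, 581 and 514 FPKM. Eif3h, Tpt1, Eef2 and Eef1g are on the list of other TOP messenger RNAs, and none of the 10 was called.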

How the data were processed

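Islet poly-A RNA-seq from 6 libraries was analysed. The authors deposited 1 table of FPKM values with gene lengths, per the file headers. Per the submitters' processing notes the builds were GRCm38 and mm10, and the tools included DESeq2 1.20.0, featureCounts 1.5.0-p3, HISAT2 2.0.5 and CASAVA. No label names a strand-marking step. FPKM times length gave whole reads for 100.0% of values, within 0.01 read. Depth is given in the report.

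The test covered genes whose mean FPKM reached 0.5, on log2(FPKM + 1), which understates the change of low genes, with limma 3.58.1 in R 4.3.3 (variance trend, two-sided, Benjamini-Hochberg over all 15927 genes, threshold 0.05). Folds are ratios of mean FPKM. Deposited values were not rescaled, since median-of-ratios factors were 1.01 in every library. With 3 against 3 libraries an exact permutation test cannot go below 0.1, so none is given. Replicate pairs differed by a chi-square per degree of freedom of 5.06 to 16.4, so none was a copy. Scripts were tested on simulated data.

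Named members were those called, the 5 highest and 5 lowest by mean, the 5 largest changes in each direction, the paralogs, the stalk and those with a library at 0. From each pathway list the 4 tested genes of lowest adjusted p whose mean reached 1 FPKM were named, and the 10 genes most like the members. A gene that this rule names is not reported here. Members and lists were chosen with earlier results of these data known. Of the members, 93 were in GENCODE M21 and 89 had the same coordinates, which are on GRCm38. Sequences are from RefSeq (GRCm38.p6) and from the GENCODE transcripts.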

Additional observations from a re-analysis of the deposited data

How the results depend on the processing

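The members' median log2 fold change stayed positive under all alternatives run, between 0.12 and 0.36, and no alternative called a member lower. The count of members called higher was less stable. Against 6, it was 1 with no filter on low values (3.38% of all genes called higher), 11 at a mean FPKM of at least 5 (13.1%), 3 with no variance trend (8.46%), 11 over protein-coding genes alone (13.5%), 28 under quantile normalization (9.79%), 20 when scaled without the 50 highest genes, 32 when scaled to total recovered reads and 58 by voom on recovered reads. Voom with implied library sizes, added after seeing the data, called 24. Leaving out each library in turn gave 1 to 22 members, 782 to 1380 genes higher and 1027 to 1853 lower. Scaling to total recovered reads called 2336 genes higher and 1093 lower, so 68.1% of calls were higher against 43.7% in the main test, 53.8% without the 50 highest genes and 69.6% by voom, which called 3020 higher. Voom on recovered reads put the median of all genes at 0.11, and the members' 0.36 is to be read against that. Rplp1 changed sign under quantile normalization (-0.07, adjusted p = 0.412), and the cause was not tested. Of 561 alternative values of 27 named members, 498 kept their side of the threshold, 36 lost a call, 26 gained one, and the remaining value was that of Rplp1. The sign differed from the main test in 23 of the 561, and 22 of these were of members called in neither fit (Rpl21, Rpl36a-ps1, Rpl36al, Rpl7l1, Rps10, Rps27 and Rps27a). With the replicate number as a block 5 members were called higher (Rps27rt, Rps7, Rpl29, Rps12 and Rpl35a), against 7.21% of all genes, with 1148 genes higher and 1490 lower. For Rps27rt the SE was 0.145 with the block and 0.549 in the main test. Same-numbered libraries deviated together by correlations of 0.0293, 0.0377 and 0.0185, each small but the highest of its library. These values do not settle whether the libraries were paired. Members with few reads, such as Rpl36a-ps1 with a mean of 5.17, are limited by depth.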

Other observations

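Among the 75 tested rows annotated as ribosomal protein pseudogenes, 6 were called higher in knockout-labelled libraries and 0 lower (the background is 8.77% of all genes higher). Rps4l, a transcribed processed pseudogene of this annotation, 79.8% identical to Rps4x with 3 gap bases counted as differences, was at 47.9, 44.8 and 44.6 FPKM in controls and at 68.5, 73.8 and 68.9 FPKM in knockout-labelled libraries. By limma the mean rose 1.54-fold (log2 fold change 0.61 with an SE of 0.0569, adjusted p = 0.00109). Its parent Rps4x was at 156, 164 and 170 FPKM and at 180, 240 and 191 FPKM, with an adjusted p of 0.0923. Unlike most members, Rps4l was nearly level over the 3 knockout-labelled libraries.

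The other 5 such rows were low. Rps7-ps2 was at 0.466, 1.17 and 0.459 FPKM in controls and at 3.66, 3.48 and 4.86 FPKM in knockout-labelled libraries (5.72-fold, adjusted p = 0.00267). Rpl36a-ps3 was at most 2.17 FPKM in controls and rose 2.83-fold (adjusted p = 0.00442). Rpl26-ps6 rose 2.63-fold, Rpl31-ps6 4.07-fold and Rps13-ps1 1.86-fold. These rows were singled out after their values were seen.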
